A study of Mus musculus with 18 samples.

Results

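Bone marrow macrophages labelled as lacking Smad1 were compared after exposure to TGF-β1 or to BMP4, with the 3 libraries of one ligand set directly against the 3 of the other. The libraries were chosen by their labels alone: 6 of the 18 in the series. The comparison covered the 13671 genes that passed a low-count filter, of 54532 in the deposited table. Untreated libraries were not used, so a gene reported as higher with TGF-β1 may have been raised by TGF-β1 or lowered by BMP4, and these cannot be told apart here. The ligands also differed in dose, so ligand and dose cannot be told apart either.

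By their description in the series, both groups came from MyS1KO mice, which carry the Smad1 fl/fl alleles and LyzM-Cre. This Cre recombinase is driven by the lysozyme M (Lyz2) promoter and therefore active in myeloid cells. The mice were 2 to 3 months old. Marrow cells from the tibia were kept for 24 h with 15% serum, medium conditioned by WEHI-3 cells (10%) and the macrophage growth factor CSF-1 at 12 ng/ml, and the non-adherent cells were then grown for 48 h with 120 ng/ml CSF-1. After about 16 h without serum, 1 group received TGF-β1 at 10 ng/ml and the other BMP4 at 50 ng/ml, each for 4 h. The labels do not say whether the 3 libraries under one ligand are from separate mice, so p-values measure the spread between these libraries, which may be technical. Polyadenylated RNA was sequenced. Values from macrophages labelled Smad1 fl/fl, with no Cre named, under the same ligands (3 libraries each), are given beside the results where stated and are called floxed-labelled; the MyS1KO libraries are called knockout-labelled.

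TGF-β1 and BMP4 belong to the same family of secreted dimers. Each assembles type I and type II receptor kinases at the cell surface. The TGF-β type I receptor Tgfbr1 mainly phosphorylates Smad2 and Smad3, the BMP type I receptors phosphorylate Smad1, Smad5 and Smad9, and both branches share Smad4 on the way to the nucleus. Smad6, Smad7 and several membrane and ubiquitin ligase proteins are induced by the pathway and shut it down. In macrophages TGF-β is known for restraining inflammatory genes and for keeping microglia in their resident state.

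Total counts per library were 15153296, 18636282 and 19064269 for TGF-β1, against 21394840, 19333829 and 19951359 for BMP4. Smad1, the targeted gene, was measured at 20.3, 23.5 and 19.4 CPM under TGF-β1 and 26.1, 24.7 and 24.2 CPM under BMP4, where CPM stands for counts scaled to an equal library total with edgeR's TMM factors. It was thus detected in all 6 knockout-labelled libraries and did not pass the test between ligands (log2 difference -0.25 ± 0.09 (SE), edgeR adjusted p = 0.0688; with library number as a replicate block, adjusted p = 0.0229). The labels do not say which exons were floxed, so counts over the whole gene neither check nor contradict the deletion, which the submitters state was documented by western blot. Lyz2, whose promoter drives the Cre, stood at 13373, 13822 and 13465 CPM under TGF-β1 and 17714, 15818 and 16491 CPM under BMP4 in the knockout-labelled libraries. In the floxed-labelled libraries it stood at 37.3, 8094 and 8050.1 CPM under TGF-β1 and 74.7, 9858 and 9560.4 CPM under BMP4. The library numbered 1 of each floxed-labelled group was thus near 0, and the others also lay below every knockout-labelled library. The genotype labels do not account for this pattern of Lyz2, and its cause was not tested. Mitochondrial genes took 1.02% to 1.04% of counts with TGF-β1 and 1.08% to 1.16% with BMP4. BMP4 library 1 stood apart in Gm23935, with 0.547% of its counts against 0.0953% to 0.288% in the other 5.

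The ligands gave widely different transcriptomes. Of the 13671 genes, 4189 passed edgeR's quasi-likelihood test at an adjusted p under 0.05 (30.6%): 2119 were higher with TGF-β1 (15.5%) and 2070 higher with BMP4 (15.1%). These genes are referred to as called, and a number alone in brackets after a gene is its log2 difference, TGF-β1 minus BMP4. The SE given with a log2 difference was worked back from edgeR's F statistic. It may understate the error where a group has few counts, as Pmepa1, Tmeff1 and Ahr do. Most differences were small, with 2217 called genes differing by less than 1.5-fold, and the larger ones lay more often on the TGF-β1 side: 636 called genes were at least 2-fold higher with TGF-β1 and 454 with BMP4, and 200 against 71 were at least 4-fold higher. Part of this excess was not protein-coding. The 2-fold counts were 460 and 374 for protein-coding genes, and 66 and 12 for genes annotated TEC, an Ensembl class of putative transcripts. For 6072 genes (44.4%) the 3 libraries of one ligand did not overlap the 3 of the other, and the first principal component, which separated the ligands, held 65.4% of the variance. Libraries with the same number deviated together, and with that number as a block 5554 genes were called (40.6%), including 4186 of the 4189. With each library left out in turn, 2906 of the 4189 genes were called every time. In bulk RNA, fewer cells of a type and less RNA per cell cannot be told apart, which holds for every gene below.

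**Figure D1:**
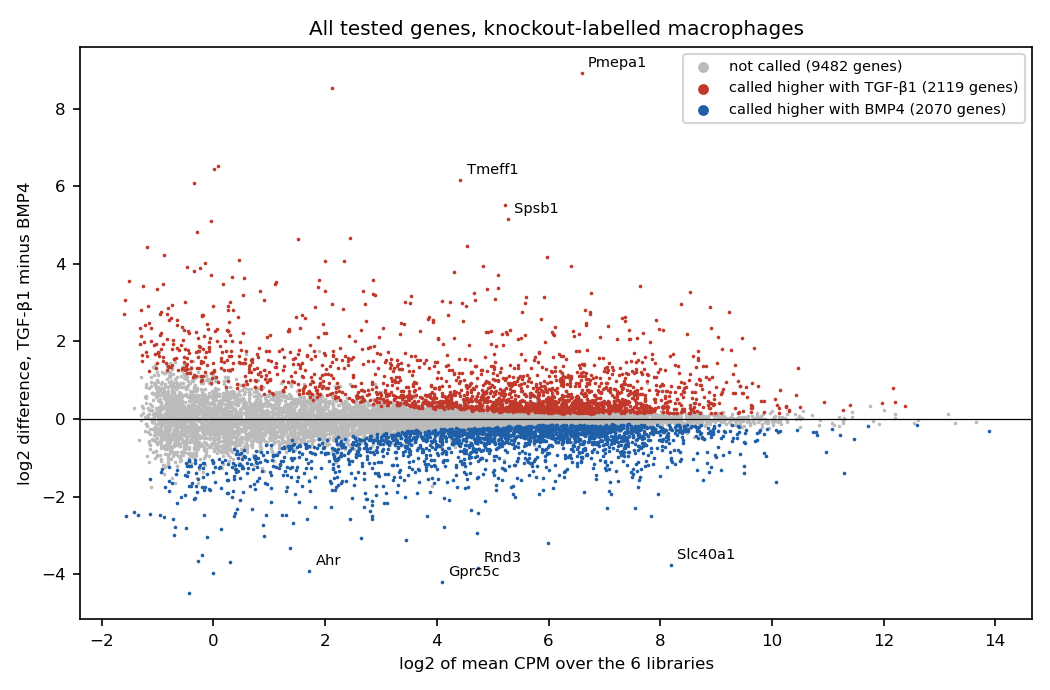
All 13671 tested genes, with the log2 of the mean CPM over the 6 libraries on the horizontal axis and the log2 difference (TGF-β1 minus BMP4) on the vertical axis. Each point is a gene, red for the 2119 called higher with TGF-β1, blue for the 2070 called higher with BMP4 and grey for the rest. Pmepa1 stands highest and Gprc5c, Ahr, Rnd3 and Slc40a1 are among the lowest.

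Among called genes with 5 CPM or more under the higher ligand, genes with only a predicted-gene name aside, the largest difference was in Pmepa1, a membrane protein that sequesters receptor-activated Smads. It stood at 193, 183 and 203 CPM under TGF-β1 and 0.378, 0.307 and 0.491 CPM under BMP4 (log2 difference 8.92 ± 0.11 (SE), edgeR adjusted p = 2.49e-10), a 493-fold difference of the means, and was close to silent in the BMP4 libraries. Tmeff1, a transmembrane protein with follistatin and EGF-like modules, followed at 35.6, 46.8 and 44.4 CPM under TGF-β1 and 0.567, 0.665 and 0.540 CPM under BMP4 (log2 difference 6.15 ± 0.17 (SE), edgeR adjusted p = 2.79e-08). Spsb1, an adaptor of a ubiquitin ligase, stood at 72.8, 73.4 and 80.0 CPM under TGF-β1 and 1.84, 2.20 and 2.31 CPM under BMP4 (log2 difference 5.15 ± 0.10 (SE), edgeR adjusted p = 3.90e-09). In each of these 3 genes the lowest TGF-β1 library lay above the highest BMP4 library by more than the whole spread within either group.

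The other leading genes on the TGF-β1 side were a set of surface and secreted proteins and 2 intracellular ones. Pdgfa, a growth factor for mesenchymal cells, was uniform within each group, at 116, 122 and 119 CPM under TGF-β1 and 5.95, 6.34 and 7.41 CPM under BMP4 (log2 difference 4.18 ± 0.08 (SE), edgeR adjusted p = 3.90e-09). Cspg4, the NG2 proteoglycan known from pericytes, stood at 51.0, 37.0 and 46.0 CPM under TGF-β1 and 1.32, 2.20 and 2.55 CPM under BMP4 (log2 difference 4.46 ± 0.20 (SE)). Mcam, the adhesion molecule CD146, and F2r, the thrombin receptor PAR1, were close to undetected with BMP4: Mcam averaged 10.5 against 0.413 CPM and F2r 5.50 against 0.212 CPM. Slc36a2, an amino acid transporter, and Htra3, a secreted serine protease, had log2 differences of 4.07 and 4.07. Tent5c, a poly(A) polymerase, and Plk3, a stress-activated kinase, were the last of those described, with 159 against 10.3 CPM and 53.2 against 3.46 CPM. None of these 11 genes overlapped between the groups, which the rule that chose them required.

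On the BMP4 side the leading differences were smaller in fold, the largest being in Gprc5c. Gprc5c, an orphan receptor, stood at 1.73, 2.22 and 1.28 CPM under TGF-β1 and 33.1, 40.2 and 23.9 CPM under BMP4 (log2 difference -4.21 ± 0.24 (SE), edgeR adjusted p = 1.49e-06). Ahr, the aryl hydrocarbon receptor, stood at 0.465, 0.379 and 0.372 CPM under TGF-β1 and 6.99, 5.94 and 5.59 CPM under BMP4 (log2 difference -3.92 ± 0.23 (SE), edgeR adjusted p = 1.71e-06), and Rnd3, a small protein that stays bound to GTP, at 4.39, 2.49 and 3.56 CPM under TGF-β1 and 51.7, 43.1 and 54.5 CPM under BMP4 (log2 difference -3.85 ± 0.17 (SE)). In each of these 3 the groups were wide apart. Slc40a1 encodes ferroportin, the only known cellular iron exporter. It stood at 29.8, 53.9 and 35.2 CPM under TGF-β1 and 440.3, 706 and 485 CPM under BMP4 (log2 difference -3.77 ± 0.24 (SE), edgeR adjusted p = 3.11e-06) and library 2 was the highest within each group. Gas7, a cytoskeletal adaptor, differed with little spread, at 69.2, 67.7 and 66.5 CPM under TGF-β1 and 419, 391.6 and 348 CPM under BMP4 (log2 difference -2.51 ± 0.07 (SE), edgeR adjusted p = 3.57e-08). Ednrb, the endothelin B receptor, averaged 12.3 CPM under TGF-β1 and 114 CPM under BMP4, and Cd163, the hemoglobin scavenger receptor, 2.27 and 19.6 CPM. The other 5 were Sema6d, a transmembrane semaphorin (-3.08), Cd28, known as a costimulatory receptor of T cells (-2.94), Gbp7, an interferon-inducible GTPase (-2.79), Fam43a (-2.59) and Cdc42ep2, an effector of Cdc42 (-2.58).

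**Figure D2:**
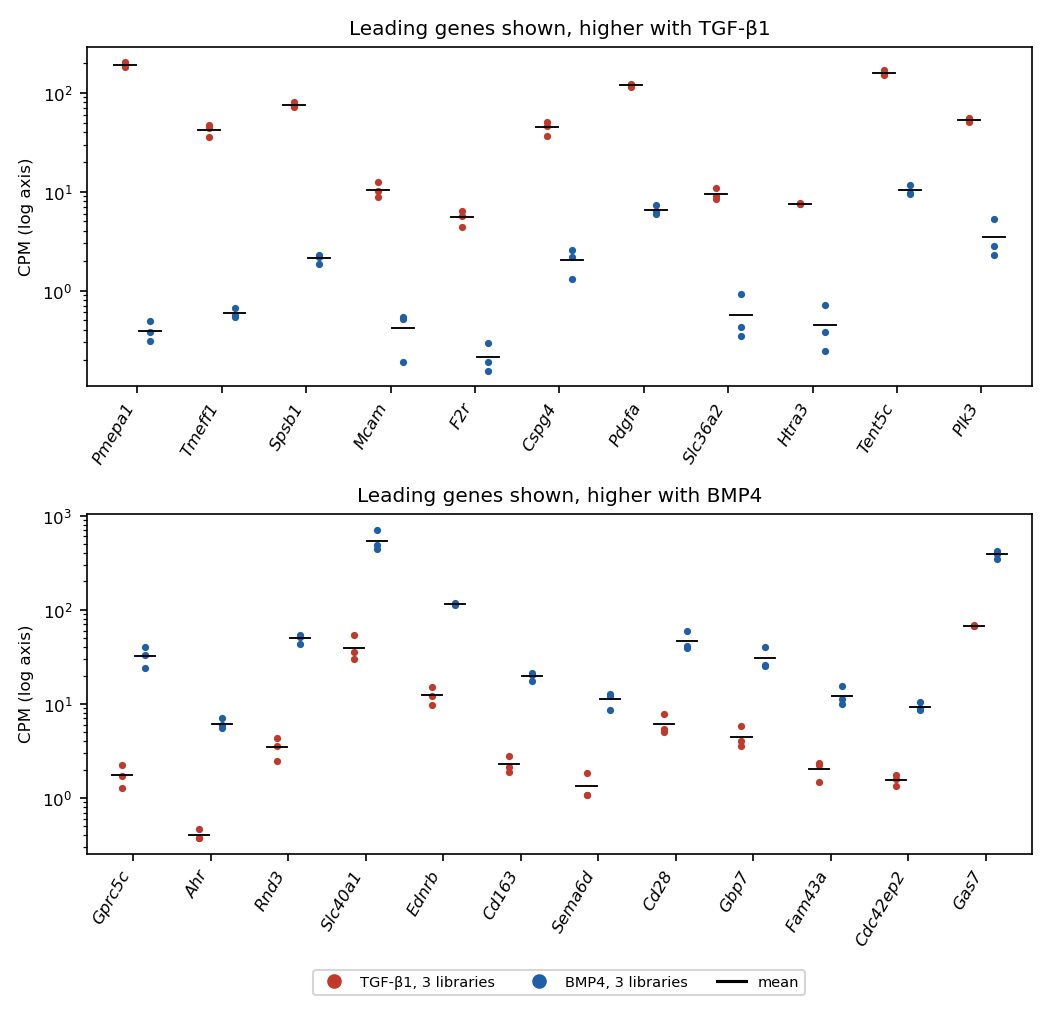
CPM (log axis) in each library for the leading genes described on the TGF-β1 side (11) and the BMP4 side (12), taken among called genes without overlap between ligands and with a higher mean of 5 CPM or more. Points are the 3 libraries per ligand (red TGF-β1, blue BMP4) and black bars their means. Pmepa1 runs from 0.307 to 0.491 CPM with BMP4 and from 183 to 203 CPM with TGF-β1.

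Promoters are shown to give the sequence next to which these differences arose. The windows run from 250 bases before to 50 bases after the transcription start, from RefSeq on build GRCm38.p6, 5′ to 3′ on the gene's strand. They belong to the 3 leading genes of each side that had an entry in that table, and to Id3, described below. Capitals mark matches, on either strand, to 6 short motifs: the palindromic Smad box GTCTAGAC, the GC-rich Smad box GGCGCC, the AP-1 site TGANTCA, the PU.1 site GAGGAAGT, the hypoxia core ACGTG and the interferon core GAAANNGAA (N stands for any base).
Tmeff1 (chr4:48584924-48585223, plus strand): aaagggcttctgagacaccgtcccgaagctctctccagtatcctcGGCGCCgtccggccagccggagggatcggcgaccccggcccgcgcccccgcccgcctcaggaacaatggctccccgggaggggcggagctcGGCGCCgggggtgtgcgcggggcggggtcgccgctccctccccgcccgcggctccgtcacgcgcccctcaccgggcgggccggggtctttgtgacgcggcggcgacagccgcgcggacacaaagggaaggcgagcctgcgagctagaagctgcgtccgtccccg
Spsb1 (chr4:149954957-149955256, minus strand): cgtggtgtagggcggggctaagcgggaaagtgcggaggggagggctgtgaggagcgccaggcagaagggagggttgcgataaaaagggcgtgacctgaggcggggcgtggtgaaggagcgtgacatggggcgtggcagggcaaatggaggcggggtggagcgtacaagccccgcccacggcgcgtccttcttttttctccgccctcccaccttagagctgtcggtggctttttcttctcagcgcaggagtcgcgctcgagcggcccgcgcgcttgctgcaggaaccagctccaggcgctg
Mcam (chr9:44134408-44134707, plus strand): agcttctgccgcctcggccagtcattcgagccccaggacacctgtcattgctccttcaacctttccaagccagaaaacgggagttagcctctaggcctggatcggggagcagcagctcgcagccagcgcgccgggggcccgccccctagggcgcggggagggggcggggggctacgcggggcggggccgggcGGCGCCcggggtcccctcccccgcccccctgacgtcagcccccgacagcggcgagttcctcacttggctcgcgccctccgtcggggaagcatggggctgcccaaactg
Rnd3 (chr2:51149062-51149361, minus strand): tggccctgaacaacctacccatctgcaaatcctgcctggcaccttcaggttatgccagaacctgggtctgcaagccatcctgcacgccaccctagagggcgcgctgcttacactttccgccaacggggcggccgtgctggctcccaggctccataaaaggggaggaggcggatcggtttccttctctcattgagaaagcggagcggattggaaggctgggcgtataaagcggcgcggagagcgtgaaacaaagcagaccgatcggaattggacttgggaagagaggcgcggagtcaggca
Ednrb (chr14:103843652-103843951, minus strand): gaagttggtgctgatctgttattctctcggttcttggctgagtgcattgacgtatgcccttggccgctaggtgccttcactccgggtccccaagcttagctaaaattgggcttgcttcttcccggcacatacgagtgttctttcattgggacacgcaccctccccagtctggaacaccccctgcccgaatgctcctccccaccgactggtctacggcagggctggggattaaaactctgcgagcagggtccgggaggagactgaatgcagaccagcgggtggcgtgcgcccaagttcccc
Cd163 (chr6:124304401-124304700, plus strand): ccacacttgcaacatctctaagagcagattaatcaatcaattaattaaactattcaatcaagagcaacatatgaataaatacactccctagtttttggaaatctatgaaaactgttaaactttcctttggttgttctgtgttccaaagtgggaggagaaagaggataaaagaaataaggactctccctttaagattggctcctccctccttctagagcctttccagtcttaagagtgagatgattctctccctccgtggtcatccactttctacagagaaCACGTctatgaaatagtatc
Id3 (chr4:136143572-136143871, plus strand): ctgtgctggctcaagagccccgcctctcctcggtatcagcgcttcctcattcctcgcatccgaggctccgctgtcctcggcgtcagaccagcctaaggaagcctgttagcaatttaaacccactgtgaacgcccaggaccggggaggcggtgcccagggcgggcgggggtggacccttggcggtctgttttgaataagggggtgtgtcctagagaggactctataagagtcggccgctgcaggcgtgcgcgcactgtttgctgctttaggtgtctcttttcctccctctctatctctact

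Tmeff1 held 2 copies of the GC-rich Smad box, Mcam 1 copy, and Cd163 1 copy of the hypoxia core as its reverse complement. The other 4 windows held none of the 6. The windows differed in base composition, from 38.0% G and C in Cd163 to 76.0% in Tmeff1. A promoter was found for 9759 of the 13669 different tested symbols. GGCGCC was present in 20.7% of these, in 21.6% of the 402 promoters of genes called at least 2-fold higher with TGF-β1 and in 18.5% of the 298 called at least 2-fold higher with BMP4. The interferon core was present in 7.52%, 5.22% and 13.1% of the same sets, the PU.1 site in 3.59%, 3.73% and 7.72%, the AP-1 site in 4.97%, 6.72% and 8.39%, and the hypoxia core in 25.8%, 20.9% and 22.5%. GTCTAGAC was in 22 of all 9759 promoters, in 2 of the 402 and in 0 of the 298. Median G and C content was 60.7%, 61.3% and 56.7%. These shares are descriptions of short windows and were not tested; a match need not be a bound site.

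Among ligands and the proteins that hold them latent, 4 of 12 tested members were called higher with BMP4 and 2 higher with TGF-β1, against 15.1% and 15.5% of all tested genes. These shares over all tested genes are the background for the counts of every list below. Listed genes as a whole were called more often: 346 of the 707 different genes tested in the lists, cell type markers included, against 30.6% of all tested genes. The lists were chosen with earlier results of these data known, so a list above the background is not by itself unusual among them. Nrros, which anchors latent TGF-β1 on macrophages and microglia, stood at 109.9, 95.8 and 107 CPM under TGF-β1 and 301, 280.1 and 295 CPM under BMP4 (log2 difference -1.49 ± 0.06 (SE), edgeR adjusted p = 2.41e-07). Bmp2, a close relative of the added BMP4, stood at 0.731, 0.434 and 0.266 CPM under TGF-β1 and 5.57, 5.07 and 3.48 CPM under BMP4 (log2 difference -3.33 ± 0.34 (SE), edgeR adjusted p = 6.81e-05), with all 3 TGF-β1 libraries under 1 CPM. The transcript of Tgfb1 itself differed little, at 216, 208 and 215 CPM under TGF-β1 and 242, 274 and 269 CPM under BMP4 (log2 difference -0.30 ± 0.06 (SE), edgeR adjusted p = 0.00357). Gdf15, a stress-induced cytokine, was the fourth on that side (-0.97). Ltbp3, a latent TGF-β binding protein (0.31), and Twsg1, a BMP-binding protein (0.37), were higher with TGF-β1. Bmp4 was among the 18 members that did not pass the count filter. Genes scarce under the lower ligand, such as Bmp2, Pmepa1, Ahr, Cxcl1, Pgf and Olr1, may have passed that filter only through the other ligand. For such genes being tested and being higher are not independent, and they are counted in their lists.

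Receptor transcripts differed mainly in the TGF-β type I receptor. Tgfbr1 stood at 885, 1049 and 926 CPM under TGF-β1 and 247, 315 and 271 CPM under BMP4 (log2 difference 1.78 ± 0.10 (SE), edgeR adjusted p = 1.00e-06), 3.43-fold higher with TGF-β1 and without overlap. The BMP type I receptor Acvr1 (31.2, 31.8 and 33.5 CPM under TGF-β1 and 16.4, 17.6 and 16.9 CPM under BMP4; log2 difference 0.92 ± 0.07 (SE)) and the BMP type II receptor Bmpr2 (log2 difference 0.47 ± 0.06 (SE)) were also called higher with TGF-β1, and the activin type II receptor Acvr2a was called higher with BMP4 (-0.60). Acvrl1, an endothelial-type receptor for BMP9, was called at 0.18 with an edgeR adjusted p of 0.0417 that reached 0.142 when a library was left out, and it was lost without TGF-β1 library 1 or 3 or BMP4 library 1 or 2. Tgfbr2, the TGF-β type II receptor, averaged 215 and 242 CPM and was not called (-0.17, edgeR adjusted p = 0.0651). Per length, Tgfbr1 reached 146 FPKM with TGF-β1 and 42.5 with BMP4, whereas the BMP type I receptor Bmpr1a averaged only 0.217 FPKM over the 6 libraries. In all, 4 of 12 receptors were higher with TGF-β1 and 1 with BMP4, the latter count being 2 without TGF-β1 library 2 or BMP4 library 1 or 3 and 3 under the replicate block.

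The signal-carrying Smads hardly differed, whereas their inhibitors differed strongly. None of the 5 tested receptor-activated Smads and Smad4 was called. Smad2 stood at 41.4, 43.1 and 44.3 CPM under TGF-β1 and 43.3, 40.4 and 44.8 CPM under BMP4, with a 95% interval of the log2 difference of -0.14 to 0.15, and for Smad4 that interval was -0.14 to 0.11. Smad5 stood at 33.2, 34.6 and 37.2 CPM under TGF-β1 and 32.3, 29.7 and 30.8 CPM under BMP4 (log2 difference 0.18 ± 0.07 (SE), edgeR adjusted p = 0.0878, and 0.0454 under the replicate block). The block thus called 1 member in each direction, Smad5 higher with TGF-β1 and Smad1 higher with BMP4; without TGF-β1 library 2 Smad1 was also called, at an edgeR adjusted p of 0.0219. Smad9 did not pass the count filter.

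Of 18 listed inhibitors and other regulators of the pathway, 12 were higher with TGF-β1 and 3 with BMP4. Smad7, which blocks type I receptors, stood at 59.3, 52.4 and 50.4 CPM under TGF-β1 and 5.57, 5.12 and 5.05 CPM under BMP4 (log2 difference 3.36 ± 0.09 (SE), edgeR adjusted p = 2.79e-08). Smad6, known as the inhibitor that acts preferentially on the BMP branch, stood at 36.7, 34.5 and 39.2 CPM under TGF-β1 and 2.03, 2.46 and 3.44 CPM under BMP4 (log2 difference 3.80 ± 0.16 (SE), edgeR adjusted p = 2.25e-07). Both groups were far apart in each of these genes. Besides Pmepa1 and Spsb1, the other members were Ldlrad4 (2.25), a relative of Pmepa1, the nuclear corepressors Ski (1.62), Skil (1.62) and Tgif1 (1.20), the ubiquitin ligases Smurf1 (1.04), Smurf2 (0.85) and Peli1 (0.72), and the deubiquitinase Usp15 (0.14). Usp15 was not called with any library left out (edgeR adjusted p up to 0.141), and that alone brought the count to 11 each time. The members higher with BMP4 were the pseudoreceptor Bambi (-0.44), the antiproliferative protein Tob1 (-0.28) and the receptor-binding immunophilin Fkbp1a (-0.19), all less than 1.5-fold, and their count was 1 without TGF-β1 library 1 or 3 or BMP4 library 2 and 0 without TGF-β1 library 2 or BMP4 library 3.

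**Figure D3:**
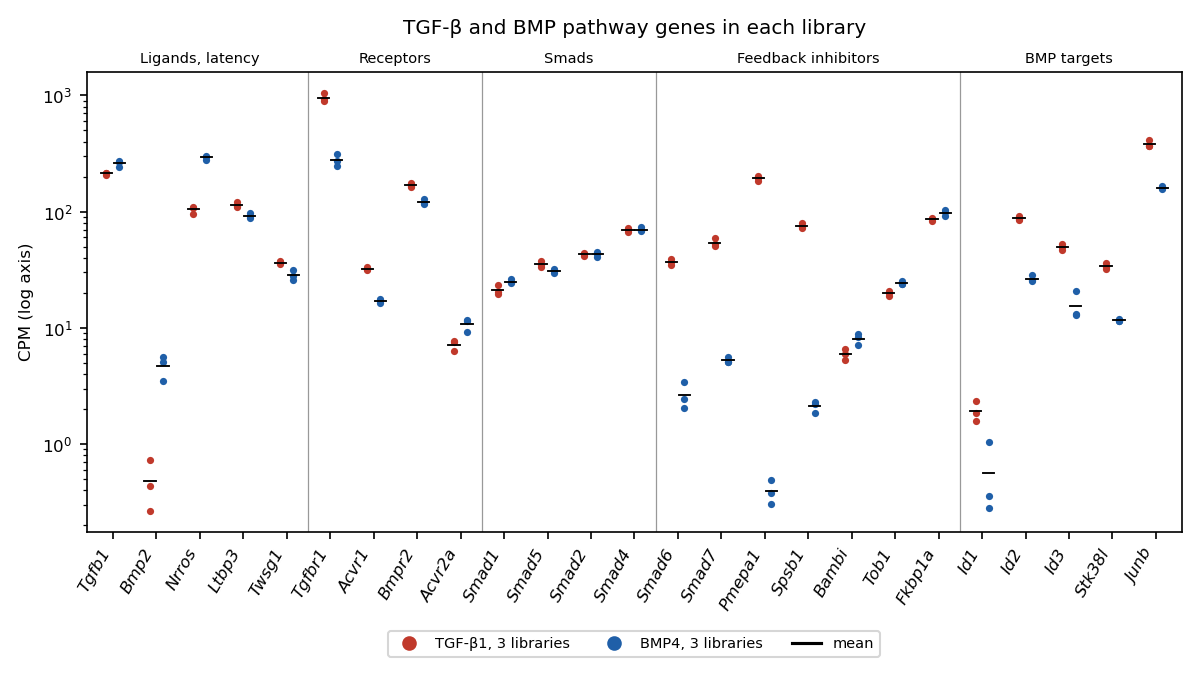
CPM (log axis) in each library for pathway genes named by the rule, ordered by role: ligands and latency proteins, receptors, Smads, feedback inhibitors and BMP target genes. Points are the 3 libraries per ligand (red TGF-β1, blue BMP4) and bars their means. The Smads lie side by side, whereas Tgfbr1, Smad6, Smad7, Pmepa1, Spsb1 and the Id genes stand higher with TGF-β1 and Bmp2 and Nrros higher with BMP4.

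Every one of the 7 tested members of a list of BMP and Smad1/5 target genes was higher with TGF-β1. The list was drawn from general knowledge of BMP responses, but with earlier results of these data known. Of its members 15, among them Hamp, Hes1 and the Msx and Dlx factors, did not pass the count filter. Gata2 (1.49 CPM under TGF-β1 against 0.233 CPM under BMP4) and Id1 (1.92 against 0.557 CPM) were scarce with BMP4. They may have passed the filter only through the TGF-β1 libraries, so for them being tested and being higher with TGF-β1 are not independent. Id2, a dominant inhibitor of basic helix-loop-helix factors, stood at 90.8, 86.7 and 83.9 CPM under TGF-β1 and 25.3, 25.6 and 28.2 CPM under BMP4 (log2 difference 1.72 ± 0.06 (SE), edgeR adjusted p = 1.17e-07). Id3 stood at 49.8, 52.3 and 46.5 CPM under TGF-β1 and 13.03, 12.8 and 20.6 CPM under BMP4 (log2 difference 1.68 ± 0.16 (SE), edgeR adjusted p = 4.58e-05), with BMP4 library 3 above the other two. Id1, the best known BMP target of the family, was scarce, at 2.33, 1.57 and 1.86 CPM under TGF-β1 and 0.283, 0.358 and 1.03 CPM under BMP4 (log2 difference 1.76 ± 0.44 (SE), edgeR adjusted p = 0.0132), and its adjusted p was 0.0524 without TGF-β1 library 1. Per length, Id2 and Id3 reached 35.7 and 27.7 FPKM with TGF-β1, and Id1 only 1.65 FPKM. The remaining members were Gata2 (2.67), a progenitor and mast cell factor, Runx2 (1.65), the osteoblast factor, Stk38l (1.55), a kinase, and Junb (1.25), an AP-1 subunit that TGF-β is also known to induce.

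Of 21 tested TGF-β and Smad3 target genes, 12 were higher with TGF-β1 and 5 with BMP4, with a median log2 difference of 0.71 against -0.01 over all tested genes. Tgfbi, a matrix protein named for its induction by TGF-β, stood at 1126, 871 and 1141 CPM under TGF-β1 and 162, 130.1 and 173 CPM under BMP4 (log2 difference 2.75 ± 0.13 (SE), edgeR adjusted p = 4.52e-07). The integrin subunits Itgb5 (1149.6, 1165 and 1118 CPM under TGF-β1 and 258, 261 and 282 CPM under BMP4) and Itgav (log2 difference 1.52 ± 0.06 (SE)), which pair as the vitronectin receptor αvβ5, were both higher with TGF-β1. Pdgfb, a growth factor for pericytes, followed at 308, 269.8 and 290.2 CPM under TGF-β1 and 58.6, 57.4 and 62.0 CPM under BMP4 (log2 difference 2.28 ± 0.06 (SE), edgeR adjusted p = 2.79e-08). Members higher with BMP4 included Cdkn2b, the cell cycle inhibitor p15 that TGF-β induces in epithelia (1.16 against 2.31 CPM), Tsc22d1 (-0.59) and the repressor Zeb2 (-0.30). That count was 3 without TGF-β1 library 1 or 2. Classical fibroblast targets such as Ctgf, Col1a1, Tagln and Snai1 did not pass the count filter.

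Genes that microglia express under TGF-β were partly higher with TGF-β1: 10 of 23 tested members were, and 3 were higher with BMP4. Cx3cr1, the fractalkine receptor, stood at 885, 673 and 946 CPM under TGF-β1 and 110.2, 79.7 and 151 CPM under BMP4 (log2 difference 2.87 ± 0.22 (SE), edgeR adjusted p = 8.73e-06), with every TGF-β1 library above every BMP4 library. Golm1 (2.09), Tmem119 (2.88) and Olfml3 (2.57) were also higher, from averages of 17.4, 0.833 and 16.9 CPM with BMP4. The transcription factor Mef2c (-0.64) and Gas6, a ligand of the Mertk receptor (-0.72), were higher with BMP4, while Mertk itself was higher with TGF-β1 (0.51). The complement genes C1qa, C1qb and C1qc, abundant in microglia, were not called (0.03, -0.15 and -0.02).

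Of 19 tested angiogenic growth factors and their receptors, 9 were higher with TGF-β1 and 2 with BMP4. Besides Pdgfa and Pdgfb, those higher with TGF-β1 were Vegfa (2.25), Pgf (2.21) and their receptor Flt1 (2.96), Fgf2 (1.57), Hgf (1.25), Ang (0.78) and Sema4d (0.33). Pgf was scarce, averaging 0.858 CPM under TGF-β1 and 0.180 CPM under BMP4, and may have passed the filter only through the TGF-β1 libraries. Hgf, hepatocyte growth factor, stood at 93.3, 95.7 and 105.1 CPM under TGF-β1 and 41.2, 42.9 and 39.7 CPM under BMP4, and its 2 groups did not overlap. Vegfa averaged 50.1 CPM under TGF-β1 and 10.5 CPM under BMP4. Higher with BMP4 were Nrp1, a coreceptor of VEGF and semaphorins (198, 185 and 192 CPM under TGF-β1 and 422, 379 and 388 CPM under BMP4), and Igf1, insulin-like growth factor (555, 611 and 574 CPM under TGF-β1 and 850.3, 889 and 880.3 CPM under BMP4).

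Of 9 tested CC chemokines, 4 were higher with BMP4 and none with TGF-β1: Ccl3 (28.0, 23.4 and 27.4 CPM under TGF-β1 and 91.3, 91.2 and 96.3 CPM under BMP4; log2 difference -1.83 ± 0.07 (SE)), Ccl4 (-1.89), Ccl9 (-1.20) and Ccl6 (-0.67), all attractants of leukocytes. Ccl2, the main monocyte attractant, differed by -0.98 but did not pass (edgeR adjusted p = 0.151). Among 9 CXC chemokines, the neutrophil attractants Cxcl1 (0.258 against 1.95 CPM) and Cxcl2 (4.16 against 11.5 CPM) were higher with BMP4. Cxcl16, a membrane-bound chemokine and scavenger receptor (619, 579 and 651 CPM under TGF-β1 and 305, 267 and 300.0 CPM under BMP4), and Cxcl14 (52.9, 69.0 and 55.8 CPM under TGF-β1 and 10.6, 13.6 and 14.8 CPM under BMP4) were higher with TGF-β1. Of the receptors, Cxcr4, which binds CXCL12, stood at 409.5, 474 and 432 CPM under TGF-β1 and 78.9, 104 and 86.6 CPM under BMP4 (log2 difference 2.29 ± 0.10 (SE), edgeR adjusted p = 2.78e-07). In that list 7 of 20 were higher with TGF-β1 and 5 with BMP4; the first count was 4 without TGF-β1 library 1 or 3 or BMP4 library 2, the second 3 without TGF-β1 library 2 or BMP4 library 1 or 3.

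An activator of plasminogen and its receptor were both higher with TGF-β1. Plau, the urokinase protease, stood at 188, 189.9 and 184 CPM under TGF-β1 and 25.5, 24.2 and 32.9 CPM under BMP4 (log2 difference 2.77 ± 0.10 (SE), edgeR adjusted p = 1.21e-07), and its receptor Plaur at 23.5, 19.4 and 21.7 CPM under TGF-β1 and 10.3, 9.67 and 11.1 CPM under BMP4. Thbd, the anticoagulant thrombomodulin, was higher with BMP4, at 7.57, 7.26 and 5.79 CPM under TGF-β1 and 16.1, 18.8 and 17.9 CPM under BMP4 (log2 difference -1.36 ± 0.13 (SE), edgeR adjusted p = 3.25e-05). In the whole list 4 of 16 were higher with TGF-β1 and 5 with BMP4, the latter count being 2 without TGF-β1 library 1 or 3 and 3 without TGF-β1 library 2 or BMP4 library 2 or 3. Among 16 integrin subunits, 5 were higher with TGF-β1, led by Itgb5, Itgav and Itga5, the fibronectin receptor chain (811, 740.0 and 855 CPM under TGF-β1 and 139.8, 146 and 186 CPM under BMP4). 4 were higher with BMP4, led by Itga8 (-1.10) and by Itga4, which binds VCAM-1 (219, 199 and 209.5 CPM under TGF-β1 and 454, 462 and 412 CPM under BMP4). Of 18 matrix metalloproteinases, ADAMs and their inhibitors 7 were higher with TGF-β1 and 4 with BMP4. The sheddase Adam10 (517, 472 and 485 CPM under TGF-β1 and 253, 231 and 247 CPM under BMP4) was higher with TGF-β1, as was Mmp2 (1.71), whereas Mmp9 (-0.80) and Mmp13 (-1.09) were higher with BMP4. Of 17 matrix proteins, 3 were higher with TGF-β1 (Tgfbi, Emilin1 and Col14a1) and 1 with BMP4. That is 17.6% and 5.88%, against 15.5% and 15.1% of all tested genes. With the replicate block the counts were 6 and 4, and the second was 4 without TGF-β1 library 2 and 2 without BMP4 library 1 or 3.

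Of 23 tested Toll-like receptors, their adaptors and other partners, 13 were higher with BMP4 and 4 with TGF-β1. Tlr4, the lipopolysaccharide receptor, stood at 47.2, 43.6 and 48.8 CPM under TGF-β1 and 116, 112 and 114 CPM under BMP4 (log2 difference -1.30 ± 0.05 (SE), edgeR adjusted p = 2.41e-07), its coreceptor Cd14 at 180.5, 154 and 166 CPM under TGF-β1 and 439, 356 and 379.8 CPM under BMP4 (log2 difference -1.23 ± 0.09 (SE), edgeR adjusted p = 5.48e-06), and its partner Ly96 differed by -0.47. Tlr1 (-1.12) and Tlr6 (-0.62), which pair with Tlr2, were higher with BMP4, whereas Tlr2 was higher with TGF-β1, at 588, 499.9 and 587 CPM under TGF-β1 and 302, 251 and 280.0 CPM under BMP4 (log2 difference 1.01 ± 0.08 (SE), edgeR adjusted p = 1.68e-05). Tlr13 (0.41), which detects bacterial ribosomal RNA, and the kinase Irak2 (0.82) were also higher with TGF-β1. The count higher with BMP4 was 8 without BMP4 library 1. Among inflammatory and inflammasome genes, Casp1 (85.1, 76.3 and 86.9 CPM under TGF-β1 and 152, 149 and 149 CPM under BMP4), Casp4 (18.1, 17.99 and 19.6 CPM under TGF-β1 and 51.4, 45.4 and 43.1 CPM under BMP4) and the cytokine Il10 (1.06 against 3.85 CPM) were higher with BMP4, and the cytokine Osm (9.36 against 3.49 CPM) and Csf1 (6.75 against 2.69 CPM) with TGF-β1. That list held 3 of 23 called higher with TGF-β1 and 6 with BMP4; the replicate block made these 6 and 10, and the first was 5 without TGF-β1 library 2.

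Interferon-stimulated genes leaned to BMP4. Of 35 tested, 13 were higher with BMP4 and 1 with TGF-β1, with a median log2 difference of -0.44. Cmpk2 stood at 26.3, 18.5 and 18.9 CPM under TGF-β1 and 68.7, 44.2 and 46.2 CPM under BMP4 (log2 difference -1.33 ± 0.19 (SE), edgeR adjusted p = 5.25e-04), and Ddx58, the RNA sensor RIG-I, at 131, 108 and 134 CPM under TGF-β1 and 254, 189 and 227 CPM under BMP4 (log2 difference -0.85 ± 0.11 (SE), edgeR adjusted p = 3.54e-04). Rsad2 (-1.30) and Mx1 (-1.13), both antiviral effectors, were called in the same direction. The summed level of the list varied with library number within each ligand, at 3537, 2655 and 3025 CPM under TGF-β1 and 5107, 3421 and 3795 CPM under BMP4, so that BMP4 library 2 lay below TGF-β1 library 1. With the replicate block 26 members were higher with BMP4, and the count was 20 without BMP4 library 2. The count higher with TGF-β1 was 0 without TGF-β1 library 1 or 3 or BMP4 library 2 or 3.

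Receptors for uptake differed in both directions, also within families. Cd300lf, an inhibitory receptor for phosphatidylserine, stood at 68.0, 59.4 and 62.4 CPM under TGF-β1 and 4.72, 3.99 and 5.64 CPM under BMP4 (log2 difference 3.72 ± 0.12 (SE), edgeR adjusted p = 5.05e-08), whereas its relatives Cd300a (115, 118 and 116 CPM under TGF-β1 and 269, 263 and 249.98 CPM under BMP4) and Cd300lb (-0.71) were higher with BMP4. Axl (669, 716 and 715 CPM under TGF-β1 and 395, 416 and 426 CPM under BMP4) and Mertk, receptors for apoptotic cells, were higher with TGF-β1, and Gas6 and Pros1, their ligands, higher with BMP4. Pros1 (-0.33) lost its call without TGF-β1 library 1 or 3 or BMP4 library 1 or 2 (edgeR adjusted p up to 0.097). In the phagocytosis list 13 of 29 members were higher with BMP4 and 8 with TGF-β1. Mrc1, the mannose receptor, stood at 614, 712 and 619 CPM under TGF-β1 and 1299, 1312 and 1188 CPM under BMP4 (log2 difference -0.97 ± 0.07 (SE), edgeR adjusted p = 7.29e-06), and the lectin receptors Clec10a (-2.43), Clec4n (-1.15) and Clec7a (-1.87), which binds β-glucan, were also higher with BMP4; Clec5a (-0.35) and Mgl2 (-0.35) were not called. Of 20 alternative activation and scavenger genes, 6 were higher with BMP4 (10 under the replicate block) and 5 with TGF-β1, including Tgm2, a transglutaminase (172, 152 and 193 CPM under TGF-β1 and 28.2, 29.1 and 39.2 CPM under BMP4), and Arg1, arginase (2.27). The costimulatory molecules Cd80 (-1.19) and Cd40 (-1.54) and Ciita, the master activator of class II genes (4.11 against 10.8 CPM), were higher with BMP4, while the class II genes H2-Aa, H2-Ab1 and H2-Eb1 were not called (-0.12, 0.08 and 0.01).

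Iron genes lay largely on the BMP4 side. Of 22 tested, 13 were higher with BMP4 and 2 with TGF-β1. Beside Slc40a1 and Cd163, Ncoa4, the receptor that sends ferritin for degradation, stood at 89.3, 91.4 and 84.5 CPM under TGF-β1 and 314, 308 and 273 CPM under BMP4 (log2 difference -1.75 ± 0.07 (SE), edgeR adjusted p = 1.35e-07), and Tfrc, the transferrin receptor, at 145, 139.6 and 148 CPM under TGF-β1 and 333, 310.1 and 325 CPM under BMP4 (log2 difference -1.16 ± 0.05 (SE), edgeR adjusted p = 2.78e-07). Spic, the factor of iron-recycling macrophages, differed by -2.06 and the importer Slc11a2 by -0.57. The heme exporter Flvcr1 (0.45) and Hfe (0.22) were higher with TGF-β1, a count that was 1 without TGF-β1 library 1 or 3 or BMP4 library 3, the lost member being Hfe, and 4 under the replicate block. Ferritin heavy chain (Fth1) and heme oxygenase (Hmox1) were not called, at 0.12 and -0.16. With Ahr, 3 of 5 genes of the aryl hydrocarbon pathway were higher with BMP4: its repressor Ahrr (10.5, 11.9 and 13.2 CPM under TGF-β1 and 24.0, 19.2 and 22.8 CPM under BMP4) and its target Tiparp (-0.50) were the others, and its partner Arnt differed by -0.02, which did not pass.

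Glycolysis and hypoxia genes leaned to TGF-β1, with 17 of 36 called higher and 6 lower. Hk2, the inducible hexokinase, stood at 255, 248 and 224 CPM under TGF-β1 and 63.9, 52.8 and 58.5 CPM under BMP4 (log2 difference 2.05 ± 0.08 (SE), edgeR adjusted p = 1.51e-07). Pfkl (0.86), Eno1 (0.67), the glucose transporter Slc2a1 (0.93), the lactate exporter Slc16a3 (0.67) and the regulator Hif1a (0.92) were on the same side. The stress protein Ndrg1, also known as hypoxia-induced, went the other way, at 14.9, 19.9 and 16.1 CPM under TGF-β1 and 64.7, 70.4 and 60.1 CPM under BMP4 (log2 difference -1.93 ± 0.11 (SE), edgeR adjusted p = 1.17e-06), with Pdk1 (-0.54) and Pfkm (-0.47). Gapdh (-0.06), Pgk1 (-0.04) and Pkm (-0.03) were not called.

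The cholesterol exporters Abca1 (1001, 879 and 937 CPM under TGF-β1 and 431, 315 and 329 CPM under BMP4) and Abcg1 (0.81), the lipoprotein Apoe (0.43), Mylip, which degrades the LDL receptor (1.11), and Olr1, the oxidized LDL receptor (3.52), were higher with TGF-β1. Olr1 was scarce, averaging 4.01 CPM under TGF-β1 and 0.342 CPM under BMP4, and may have passed the filter only through the TGF-β1 libraries. Lpl, lipoprotein lipase, stood at 1322, 1388 and 1449 CPM under TGF-β1 and 3482, 3846 and 3604 CPM under BMP4 (log2 difference -1.39 ± 0.06 (SE), edgeR adjusted p = 2.41e-07), and Pparg, the lipid-sensing nuclear receptor, at 16.2, 13.7 and 13.9 CPM under TGF-β1 and 56.2, 51.1 and 49.6 CPM under BMP4 (log2 difference -1.84 ± 0.09 (SE), edgeR adjusted p = 4.38e-07), both higher with BMP4. Of 26 such genes 9 were higher with TGF-β1 and 4 with BMP4, or 8 under the replicate block. Of 30 sterol and fatty acid synthesis genes 9 were higher with BMP4 (14 with the block) with Elovl6 the largest at -0.54, and the desaturases Fads1 (0.68) and Fads2 (0.95) were higher with TGF-β1. In the antioxidant list, Gclm, a subunit of the enzyme that starts glutathione synthesis, stood at 601, 494 and 615 CPM under TGF-β1 and 213, 209 and 259 CPM under BMP4 (log2 difference 1.33 ± 0.10 (SE), edgeR adjusted p = 1.15e-05), while catalase (Cat, -0.61) and the regulator Nfe2l2 (-0.40) were higher with BMP4. That list had 2 of 25 members higher with TGF-β1 and 6 with BMP4, or 5 and 11 with the block. The first count was 1 without TGF-β1 library 1 or 2 or 3 or BMP4 library 1 or 3, and the second 3 without TGF-β1 library 1.

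Transcription factors of the macrophage were divided within families, and 16 of 31 tested members of the identity list were higher with TGF-β1 and 10 with BMP4. Cebpa, a master factor of the myeloid lineage, stood at 606, 673 and 611 CPM under TGF-β1 and 185, 200.1 and 179 CPM under BMP4 (log2 difference 1.74 ± 0.06 (SE), edgeR adjusted p = 1.17e-07), and Cebpb was higher as well (0.99), but Cebpd was higher with BMP4, averaging 18.3 against 61.7 CPM (log2 difference -1.75 ± 0.11 (SE), edgeR adjusted p = 1.92e-06). Mef2a (753, 783 and 747 CPM under TGF-β1 and 288, 264 and 290.2 CPM under BMP4) was higher with TGF-β1 and its relative Mef2c with BMP4. Maf, a macrophage bZIP factor, stood at 230.0, 193 and 229.9 CPM under TGF-β1 and 712, 609 and 639 CPM under BMP4 (log2 difference -1.59 ± 0.08 (SE), edgeR adjusted p = 8.69e-07). Tfec (-1.77), an E-box factor of macrophages, and Batf3 (-2.14) were on the BMP4 side, and Runx3 (3.31), Bhlhe40 (2.62) and Irf8 (0.70) on the TGF-β1 side. Of 27 immediate early genes 10 were higher with TGF-β1, including Spred2 (1.51), Fosl2 (1.30) and Fos (364, 309 and 377 CPM under TGF-β1 and 125, 117 and 145 CPM under BMP4), and 6 with BMP4, led by Ier3 (-1.38) and the MAP kinase inhibitor Spred1 (-1.17). Notch receptors were also divided: Notch1 (138, 131 and 142 CPM under TGF-β1 and 61.8, 60.8 and 67.1 CPM under BMP4) and Notch4 (25.1, 21.8 and 44.3 CPM under TGF-β1 and 2.74, 3.17 and 5.15 CPM under BMP4) were higher with TGF-β1, and Notch2 (213, 195 and 208 CPM under TGF-β1 and 361, 322 and 325 CPM under BMP4) and the effector Rbpj (-0.93) with BMP4.

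Of 27 tested DNA replication genes 6 were higher with TGF-β1 and none with BMP4, so that 22.2% were called in all, against 30.6% of all tested genes. Cdt1, a licensing factor, stood at 64.8, 67.3 and 57.4 CPM under TGF-β1 and 21.6, 25.5 and 25.4 CPM under BMP4 (log2 difference 1.38 ± 0.09 (SE), edgeR adjusted p = 2.66e-06), and the helicase subunit Mcm6 at 200.1, 185 and 198 CPM under TGF-β1 and 70.1, 80.3 and 109 CPM under BMP4 (log2 difference 1.17 ± 0.14 (SE), edgeR adjusted p = 1.48e-04), with BMP4 library 3 the highest of its group. That count was 3 without TGF-β1 library 1 or 3 and 11 without BMP4 library 3, and 12 under the replicate block. Among 26 mitotic genes 1 was called in each direction, Cenpe (0.41) and Kif23 (-0.45). With the block 5 were higher with TGF-β1 and 2 with BMP4; the first count was 2 without TGF-β1 library 2 and 4 without BMP4 library 3, the second 0 without TGF-β1 library 1 or 2 or BMP4 library 2 or 3 and 2 without BMP4 library 1. Myc (13.6, 13.1 and 10.2 CPM under TGF-β1 and 5.24, 5.53 and 6.82 CPM under BMP4) was higher with TGF-β1 and Mycl (2.05 against 6.50 CPM) with BMP4. Cdk6 (-0.86), which drives G1, and Rb1, the brake on G1 that it inactivates, (-0.71) were both higher with BMP4, and Mdm2, the p53 ubiquitin ligase, was higher with TGF-β1 (428, 443 and 435 CPM under TGF-β1 and 248, 255 and 252 CPM under BMP4).

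The remaining lists gave smaller or mixed counts. Over all tested genes, 15.5% were higher with TGF-β1 and 15.1% with BMP4. Antigen presentation genes (14.3% and 19.0%) and ATF4 and serine synthesis genes (15.8% and 5.26%) lay near or under these shares. Of 17 semaphorins, plexins and neuropilins, which guide migrating cells, 6 were higher with TGF-β1, with Plxna4 (1.69) and Sema4c (1.15) the largest, and 5 with BMP4, with Sema6d and Sema4b (-1.39) the largest. The latter count was 3 without TGF-β1 library 2 or BMP4 library 1 or 2. Complement genes were called only in the BMP4 direction, 4 of 16, including the regulator Cd55 (-1.29); 1 was higher with TGF-β1 without TGF-β1 library 2, and 1 under the replicate block. Antigen presentation had 3 of 21 higher with TGF-β1, among them the inhibitory receptor Havcr2 (119, 93.7 and 127 CPM under TGF-β1 and 35.2, 30.1 and 44.0 CPM under BMP4), and 4 with BMP4, or 7 with the block. The list of CDK inhibitors, cyclins and Myc had 3 of 21 higher with TGF-β1 and 8 with BMP4. The first count was 5 without BMP4 library 3, the second 5 without TGF-β1 library 2 or 3. Of 19 ATF4 and serine synthesis genes 3 were higher with TGF-β1, among them Cebpb, and 1 with BMP4, the latter being 0 without TGF-β1 library 2 or 3 or BMP4 library 1 or 3 and 2 without BMP4 library 2 and 3 with the block.

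The median log2 difference over the tested members of a list is set against -0.01 over all tested genes. It was 1.68 for the BMP and Smad1/5 targets, 0.95 for inhibitors and other regulators of the pathway and 0.58 for angiogenic factors. It was 0.20 for microglia-type genes, 0.20 for glycolysis and hypoxia, 0.12 for DNA replication and 0.34 for the identity factors. On the other side it was -0.67 for CC chemokines, -0.26 for Toll-like receptors, -0.30 for iron genes, -0.33 for phagocytosis and -0.15 for sterol synthesis. For the other pathway lists it was 0.71 for TGF-β and Smad3 targets, 0.16 for ligands, 0.13 for receptors and -0.01 for the Smads, and it was 0.62 for the Notch pathway.

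**Figure D4:**
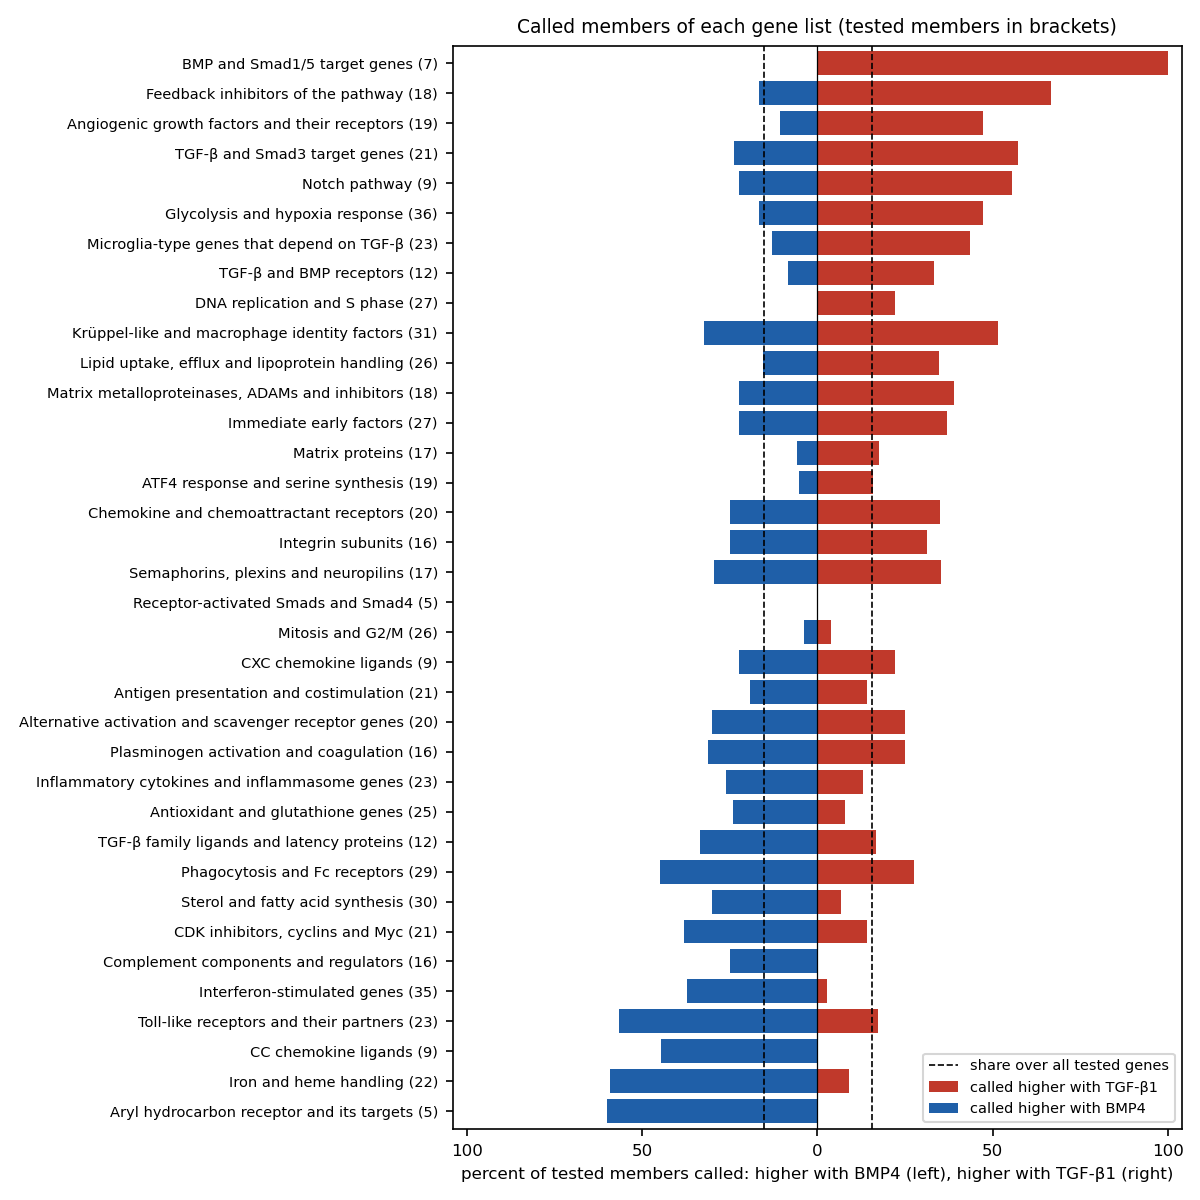
Percent of tested members of each gene list called higher with TGF-β1 (red, right) and with BMP4 (blue, left), for lists of at least 5 tested members, ordered by the difference. Dashed lines mark the shares over all tested genes, 15.5% and 15.1%. All 7 tested BMP and Smad1/5 targets lie on the TGF-β1 side, and 13 of 22 tested iron genes on the BMP4 side.

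The labelled cell type was checked on marker genes. All 18 macrophage markers were detected, and their summed level was 52479 to 56652 CPM under TGF-β1 and 54673 to 57343 CPM under BMP4. Of them 3 were higher with TGF-β1, the cathepsins Ctsd and Ctss and Mertk, and 4 with BMP4: Lyz2, Cd14, Mrc1 and Ptprc. That is 16.7% and 22.2%, against 15.5% and 15.1% of all tested genes. The pan-macrophage markers Adgre1 (-0.13), Csf1r (0.12) and Cd68 (-0.23) were not called. Summed monocyte markers were 536 to 727 CPM under TGF-β1 and 545 to 779 CPM under BMP4, with 0 of 11 called in either direction (2 and 1 under the replicate block, 1 higher with TGF-β1 without BMP4 library 3 and 1 higher with BMP4 without BMP4 library 2). Summed neutrophil markers were 387 to 481 CPM under TGF-β1 and 381 to 454 CPM under BMP4, with 0 of 13 called, or 4 higher with TGF-β1 with the block and 1 without BMP4 library 3; Ly6g had 6 counts over the 6 libraries. Dendritic cell markers summed to 435 to 439.9 CPM under TGF-β1 and 267 to 291 CPM under BMP4, most of it Irf8 (0.70), the 1 of 11 tested members higher with TGF-β1 (2 without BMP4 library 2, and 2 under the replicate block). Higher with BMP4 were 3: Batf3 (-2.14), Irf4 (-2.26) and Kmo (-1.92). Flt3, Ccr7, Cd209a and Cd8a had at most 60 counts over the 6 libraries. Of the fibroblast and stromal markers 3 of 12 passed the filter, with a sum of 4.52 to 5.36 CPM under TGF-β1 and 5.05 to 5.59 CPM under BMP4. Endothelial markers summed to 46.3 to 77.2 CPM under TGF-β1 and 25.8 to 40.8 CPM under BMP4. Cldn5 and Sox17 had 0 counts and Tek and Emcn 8 and 1 over the 6 libraries. Of 4 tested, 2 were higher with TGF-β1, Cdh5 and Vwf, a count that was 1 without TGF-β1 library 2 or BMP4 library 1 or 3. Cdh5 had only 63 counts in all under TGF-β1 and 15 under BMP4. Among markers of lymphoid, mast, erythroid and platelet lineages, 4 of 24 had 0 counts and 15 more had at most 60. Of the 5 tested, 2 were higher with BMP4, Cd4 (-0.86) and Cd79b (-0.84), and 0 with TGF-β1 (1 under the replicate block). Of 7 tested osteoclast markers, Nfatc1 (0.26) was higher with TGF-β1 and 2, Dcstamp (-1.08) and Mmp9, were higher with BMP4. The first count was 2 without TGF-β1 library 2 or BMP4 library 2, and 3 under the block; the second was 1 without TGF-β1 library 3 or BMP4 library 1. The part of these cell types in the differences above was not tested.

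The same contrast in the floxed-labelled libraries, which share no library with the knockout-labelled ones, gave 5136 called genes of 14346 (35.8%). It was taken from a joint fit of the 12 ligand-treated libraries, in which the knockout-labelled contrast called 4820 genes. The 4189 calls are from the fit of 6 libraries, so 5136 and 4189 come from unlike fits. Calls in the same direction under both labels numbered 1802 for TGF-β1 and 1804 for BMP4, and 1 gene was called in opposite directions. The shared calls were 86.1% of the knockout-labelled and 70.2% of the floxed-labelled calls, shares that also set the unlike fits side by side. Pmepa1 had a log2 difference of 8.35 in the floxed-labelled libraries beside 8.92 in the knockout-labelled ones, Slc40a1 -3.80 beside -3.77 and Gprc5c -4.27 beside -4.21. For the Id genes, whose BMP induction is known to run through Smad1 and Smad5, the values were 2.00 beside 1.76 for Id1, 1.59 beside 1.72 for Id2 and 1.49 beside 1.68 for Id3, with unadjusted edgeR p-values of the difference between labels of 0.745, 0.157 and 0.744. Across the 8599 genes averaging 10 CPM or more the log2 differences under both labels correlated with a Pearson coefficient of 0.975. Over all 13671 genes tested under both labels the Pearson coefficient was 0.859 and the Spearman coefficient 0.773. These are across genes, which are not independent replicates.

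The difference of the ligand contrast between genotype labels was tested gene by gene in the 12 ligand-treated libraries. With edgeR's quasi-likelihood test 0 of 14346 genes were called (0%), and 629 had an unadjusted p under 0.05; DESeq2 called 1. F2r had the widest gap among the leading genes, 6.20 beside 4.65, with an unadjusted edgeR p of 0.0423 and an adjusted p of 0.999. Of the feedback inhibitors, Smad7 stood at 3.43 beside 3.36 and Smad6 at 3.98 beside 3.80. A test that makes no call does not show that the ligands act alike under both labels.

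**Figure D5:**
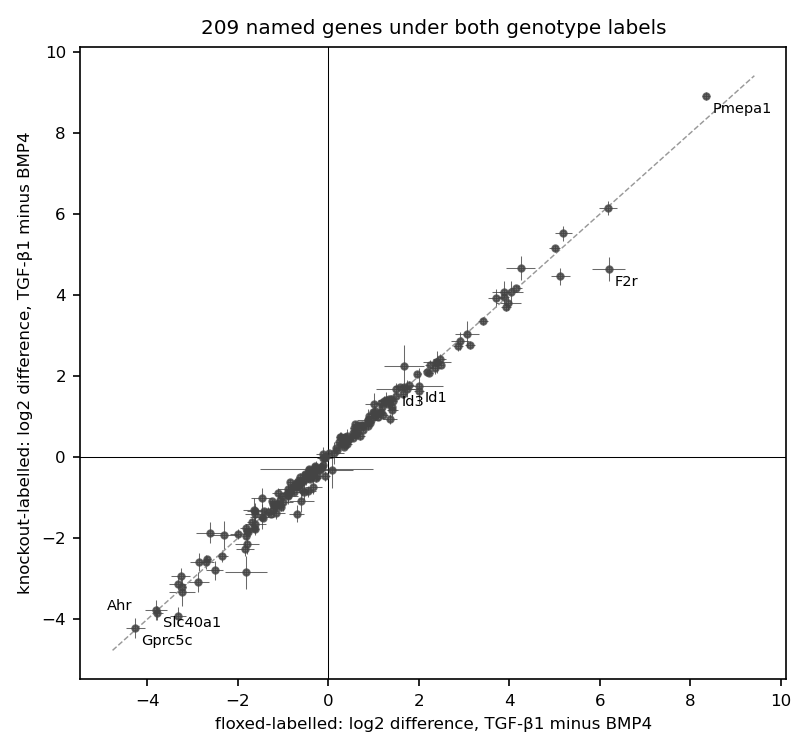
Log2 difference (TGF-β1 minus BMP4) of the 209 named genes in floxed-labelled (horizontal) and knockout-labelled libraries (vertical), with bars of 1 SE and the line of equality dashed. The genes were chosen partly by their knockout-labelled values. Most lie near the line; F2r, at 6.20 and 4.65, lies farther from it than the other leading genes.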

How the data were processed

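The authors counted reads per gene, and the counts were deposited as 1 table with gene lengths in bases and FPKM values (fragments scaled by gene length and library size) in another. The submitters' processing notes name TopHat2 2.0.9, Cufflinks 2.1.1 and HTSeq 0.6.1 and the builds mm10 and GRCm38.p6; the strand setting is not given in the sources used here, so reads of overlapping or antisense genes cannot be told apart. The table was read by named columns, and 78 other per-sample columns were not used. Total counts of 15153296 to 21394840 set the precision.

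The deposited counts of the 6 libraries were tested with edgeR 4.0.16 (R 4.3.3): low-count filter, TMM scaling, quasi-likelihood test, Benjamini-Hochberg adjustment over all 13671 genes, called under 0.05. Differences are log2 TGF-β1 minus BMP4, with a prior count of 2 for log2 CPM values. The floxed-labelled contrast and the difference between genotype labels were tested likewise, but in a joint fit of the 12 ligand-treated libraries. FPKM values deposited by the authors served to compare levels between genes. Libraries of the same number deviated together (correlations of 0.42, 0.71 and 0.53 in the knockout-labelled and 0.57, 0.45 and 0.40 in the floxed-labelled libraries, other pairs -0.46 to 0.06), so the number was taken to pair them. The main fit does not use this pairing, and calls are from it unless the block is named. The fit with the number as a block is an alternative that called 5554 genes rather than 4189.

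Genes were named by a rule: the 12 largest differences each way among called genes without overlap and whose higher mean was 5 CPM or more, predicted-gene names left out, up to 3 called members each way per gene list by adjusted p, or the 2 most abundant where none was called, and pathway genes. Other list members printed, the uncalled ones among them, were chosen after their values were seen. The members and lists were chosen with earlier results of these data known. Some genes that met the rule, 1 of the leading 12 with TGF-β1 among them, are not reported here. Promoters are RefSeq windows. Alternatives were DESeq2 1.42.0, limma 3.58.1 on FPKM, other scalings, filters and sample sets, and leaving out each library.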

Additional observations from a re-analysis of the deposited data

Results flagged for a closer look

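The share of counts in genes annotated TEC (an Ensembl class of putative transcripts) differed in opposite directions under the genotype labels. In knockout-labelled libraries it was 0.115%, 0.118% and 0.105% for TGF-β1 against 0.0959%, 0.1004% and 0.102% for BMP4, a difference of 0.0134 percentage points. In floxed-labelled libraries it was 0.0955%, 0.0914% and 0.0989% for TGF-β1 against 0.105%, 0.103% and 0.106% for BMP4, a difference of -0.0095 percentage points. All 3 same-number pairs went one way under each label; the difference between the labels was not tested.

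Gm10800 (ENSMUSG00000075014, chr2:98666547-98667301), a predicted gene outside the naming rule and named after its values were seen, had a ligand difference that differed between genotype labels by 12.6 on the log2 scale with library number as a block (edgeR adjusted p = 0.000193). Without the block the edgeR adjusted p was 0.885. It stood at 15.9, 7.04 and 3.03 CPM under TGF-β1 and 0, 0 and 0.049 CPM under BMP4 in knockout-labelled libraries. In floxed-labelled ones it stood at 1.38, 0 and 0.290 CPM under TGF-β1 and 0.323, 5.48 and 22.2 CPM under BMP4. Its levels varied many-fold between libraries of 1 group.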

How the results depend on the processing

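The count of 4189 genes ranged from 3343 to 5554 over the alternatives and stayed within 1.5 times; leaving out 1 library gave 3343 to 3826, and the replicate block gave 5554. The count in floxed-labelled libraries stayed within 1.5 times under each alternative run. The count of genes differing between genotype labels, 0, was 1 with the replicate block, 1 with DESeq2, 44 without a low-count filter, 1 without the floxed-labelled libraries numbered 1, and 0 to 1 with 1 library left out (1 without floxed-labelled BMP4 library 1); the gene called by DESeq2, the block and without those libraries was Gm10800, and the cause was not tested. Of 199 called named genes, 180 were called under all alternatives and 19 were lost under at least 1, and no direction reversed. Beside the values in the text, the block made F13a1 called (edgeR adjusted p = 0.00107) and ended no call among the named genes, and it changed no other call among them. Lyz2 lost its call when the floxed-labelled libraries joined the fit and with limma on FPKM. Within groups of 3 libraries, genes under a few CPM, such as Id1, have the widest errors.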
